A study of Homo sapiens with 24 samples.

Results

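TFEB, TFE3 and 8 genes of lysosomes and autophagy were followed in 3 human cell lines of triple-negative breast cancer given compounds that target BET proteins. The 10 genes were TFEB, TFE3, CTSA, CTSB, CTSD, LAMP1, SQSTM1, MAP1LC3B, GABARAPL1 and PLEKHM1. They were found by symbol in the deposited expression table, and all 10 of the 10 listed genes were among its 14114 genes. MDA-MB-468, MDA-MB-231 and MDA-MB-157 are established lines from breast tissue, labelled as ERα-negative and PR-negative, without HER2 overexpression, and of basal subtype. Each line was exposed for 3 h to 0.05% (v/v) DMSO, to 1000 nM thalidomide, to 1000 nM of the BET inhibitor BETi-211 or to 100 nM of the BET degrader BETd-246. Each of the 12 groups of line and treatment held 2 independent biological replicates, which gave 24 libraries of rRNA-depleted total RNA. DMSO and thalidomide both served as controls, as the series design states, so each line had 4 control libraries. No group carried a genetic change made for the study, and no genotype, transgene or animal was involved.

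TFEB and TFE3 are transcription factors of the MiT/TFE family. They bind the hexamer CACGTG in the promoters of many genes for lysosomal enzymes, lysosomal membrane proteins and autophagy proteins, and the kinase complex mTORC1, active on the lysosome surface, keeps them out of the nucleus. In autophagy a membrane closes around cargo, proteins of the ATG8 family such as LC3B and GABARAPL1 are attached to that membrane, receptors such as SQSTM1 (p62) tie ubiquitin-marked cargo to them, and the vesicle fuses with a lysosome whose hydrolases digest the content. BET proteins read acetylated histones and promote transcription by RNA polymerase II.

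Promoter sequences are shown for 5 genes that moved with the compounds, with the hexamer that TFEB and TFE3 bind marked. The sequences came from RefSeq (GRCh38.p14), where 9 of the 10 genes had an entry; CTSB had none. Each line below gives 260 bases on the gene's own strand, 5′ to 3′, from 250 bases before the transcription start to the first 10 transcribed bases, in lower case with CACGTG in capitals. LAMP1 lies at chr13:113296989-113297248 (+ strand), CTSA at chr20:45891085-45891344 (+ strand) and CTSD at chr11:1763918-1764177 (− strand). Among the 9 genes searched, these were the 3 whose window held the hexamer. TFEB at chr6:41735599-41735858 (− strand, the most 5′ of its 3 entries) and MAP1LC3B at chr16:87392086-87392345 (+ strand) are shown as the genes with the largest changes.
LAMP1: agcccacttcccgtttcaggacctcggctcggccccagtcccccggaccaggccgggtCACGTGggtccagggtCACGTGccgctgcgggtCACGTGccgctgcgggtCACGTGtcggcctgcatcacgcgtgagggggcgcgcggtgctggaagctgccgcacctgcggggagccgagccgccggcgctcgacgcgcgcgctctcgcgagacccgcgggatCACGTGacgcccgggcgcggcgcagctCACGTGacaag
CTSA: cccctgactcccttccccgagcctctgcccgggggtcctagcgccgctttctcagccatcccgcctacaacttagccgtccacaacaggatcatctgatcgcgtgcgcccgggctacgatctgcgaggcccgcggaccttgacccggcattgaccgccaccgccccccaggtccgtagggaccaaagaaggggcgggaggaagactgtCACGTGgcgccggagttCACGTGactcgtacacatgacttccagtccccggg
CTSD: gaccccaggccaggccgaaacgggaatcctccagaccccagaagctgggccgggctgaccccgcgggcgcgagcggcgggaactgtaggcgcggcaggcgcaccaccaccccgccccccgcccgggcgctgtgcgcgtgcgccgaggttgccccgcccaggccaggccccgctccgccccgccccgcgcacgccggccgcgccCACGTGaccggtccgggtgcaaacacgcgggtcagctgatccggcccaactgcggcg
TFEB: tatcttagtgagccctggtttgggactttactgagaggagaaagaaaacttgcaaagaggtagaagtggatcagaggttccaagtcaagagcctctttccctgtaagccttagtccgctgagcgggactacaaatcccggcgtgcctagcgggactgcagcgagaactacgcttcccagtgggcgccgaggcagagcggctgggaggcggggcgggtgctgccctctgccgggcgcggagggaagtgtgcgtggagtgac
MAP1LC3B: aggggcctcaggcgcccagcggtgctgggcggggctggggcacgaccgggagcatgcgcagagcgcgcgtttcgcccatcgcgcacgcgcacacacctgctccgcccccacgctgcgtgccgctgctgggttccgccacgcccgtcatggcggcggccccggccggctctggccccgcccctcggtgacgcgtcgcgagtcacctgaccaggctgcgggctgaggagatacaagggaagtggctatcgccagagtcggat
The LAMP1 window held 6 copies of CACGTG, whose first bases lay at positions -192, -176, -159, -142, -28 and -1 from the start site. In CTSA 2 copies lay at -42 and -25, and in CTSD 1 copy lay at -47. The extended palindrome TCACGTGA, which contains the hexamer, was present at -29 and -2 in LAMP1 and at -26 in CTSA. Neither motif was found in the entries of TFEB (3 entries), TFE3, SQSTM1 (3 entries), MAP1LC3B, GABARAPL1 and PLEKHM1, searched over 300 bases each (250 before and 50 after the start). Both motifs read the same on either strand. CACGTG was present in 7.26% of all 35116 promoter entries of that length, and TCACGTGA in 0.98%. These matches are descriptions of sequence, not of binding.

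Values were taken as FPKM, since the deposited table names no unit; FPKM counts fragments relative to transcript length and library size, so levels can be compared between genes per length. Changes are differences of log2(FPKM + 1), a scale that understates the change of low genes such as TFEB and PLEKHM1. The deposited values were used as they stand, and 4 other scalings were tried: every library brought to the same total, upper-quartile scaling, quantile normalization and median-of-ratios scaling. Together with the deposited scale they are the 5 scalings named below. Changes were tested with limma across all 14114 genes, and called where the p adjusted by the Benjamini-Hochberg method was below 0.05. Where 3 values are listed without names, MDA-MB-157 comes first, MDA-MB-231 next and MDA-MB-468 last. The tests measure the spread between the 2 replicates of a group, pooled over the 12 groups. The data are bulk RNA, so fewer cells of a kind and less RNA per cell cannot be told apart, and no value here speaks of protein or of autophagic flux.

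The libraries held an estimated 42500000 to 64300000 fragments, and replicates of a group correlated at 0.9919 to 0.9985 across genes. The median gene stood at 8.57 to 10.1 FPKM in the control libraries, at 7.84 to 9.15 with BETi-211 and at 6.997 to 8.557 with BETd-246, and mitochondrial transcripts made up 7.19% to 15.1% of the FPKM sum. Their part in the results below was not tested, beyond a scaling to the same total without mitochondrial genes, given at the end. The basal keratin KRT5 reached 698.5 to 876.1 FPKM in MDA-MB-468 but at most 0.667 in the other lines, although all 3 are labelled basal. In MDA-MB-157 the macrophage marker CD14 reached 50.9 to 68.1 FPKM and CSF1R 2.96 to 3.87. The other defining leukocyte markers, PTPRC, CD68, TYROBP and LYZ, were absent from the deposited table, which had been filtered before deposit.

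In the control libraries the lines differed widely in these genes. CTSB, a cysteine protease of the lysosome, was by far the most abundant in MDA-MB-157, with 597.7 ± 31.8 FPKM (SD, n = 4 controls) against 99.1 ± 8.65 in MDA-MB-231 controls and 117.6 ± 7.11 in those of MDA-MB-468. GABARAPL1 was highest in MDA-MB-468. TFEB was a low transcript in all 3 lines, and TFE3 exceeded it in every control library.

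TFEB in the controls stood at 3.99 ± 0.327 FPKM in MDA-MB-157, at 2.44 ± 0.224 in MDA-MB-231 and at 3.03 ± 0.0939 in MDA-MB-468 (SD, n = 4 each). TFE3 stood at 35.8 ± 1.24, 24.4 ± 0.234 and 12.1 ± 0.429 FPKM in the same order. The order of the lines thus differed between the 2 factors, with MDA-MB-468 last for TFE3 only. As a share of the summed TFEB and TFE3 levels, TFEB made up 9.08% to 10.5% in MDA-MB-157, 8.24% to 10.2% in MDA-MB-231 and 19.9% to 20.2% in MDA-MB-468 controls. Scaling a library by 1 common factor leaves this share as it is, while quantile normalization can change it.

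Between MDA-MB-157 and MDA-MB-231 controls all 10 genes were called (limma), against 87.4% of all genes, so the count does not set them apart. LAMP1, a heavily glycosylated protein of the lysosomal membrane, was 1.21 ± 0.03 (SE) higher on the log2 scale in MDA-MB-157 and CTSA, a protective protein and carboxypeptidase, 1.18 ± 0.04 higher. The aspartic protease CTSD was 0.48 lower there. Between MDA-MB-468 and MDA-MB-231, 9 of 10 genes were called against 86.2% of all genes, and GABARAPL1 differed most, by 2.44 ± 0.05 (limma adjusted p = 4.2e-17). Between MDA-MB-157 and MDA-MB-468, 9 of 10 were called against 88% of all genes, with CTSD the exception at -0.04 (limma adjusted p = 0.386). For TFEB the lines differed by 0.54, 0.23 and 0.31 in these 3 comparisons.

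**Figure D1:**
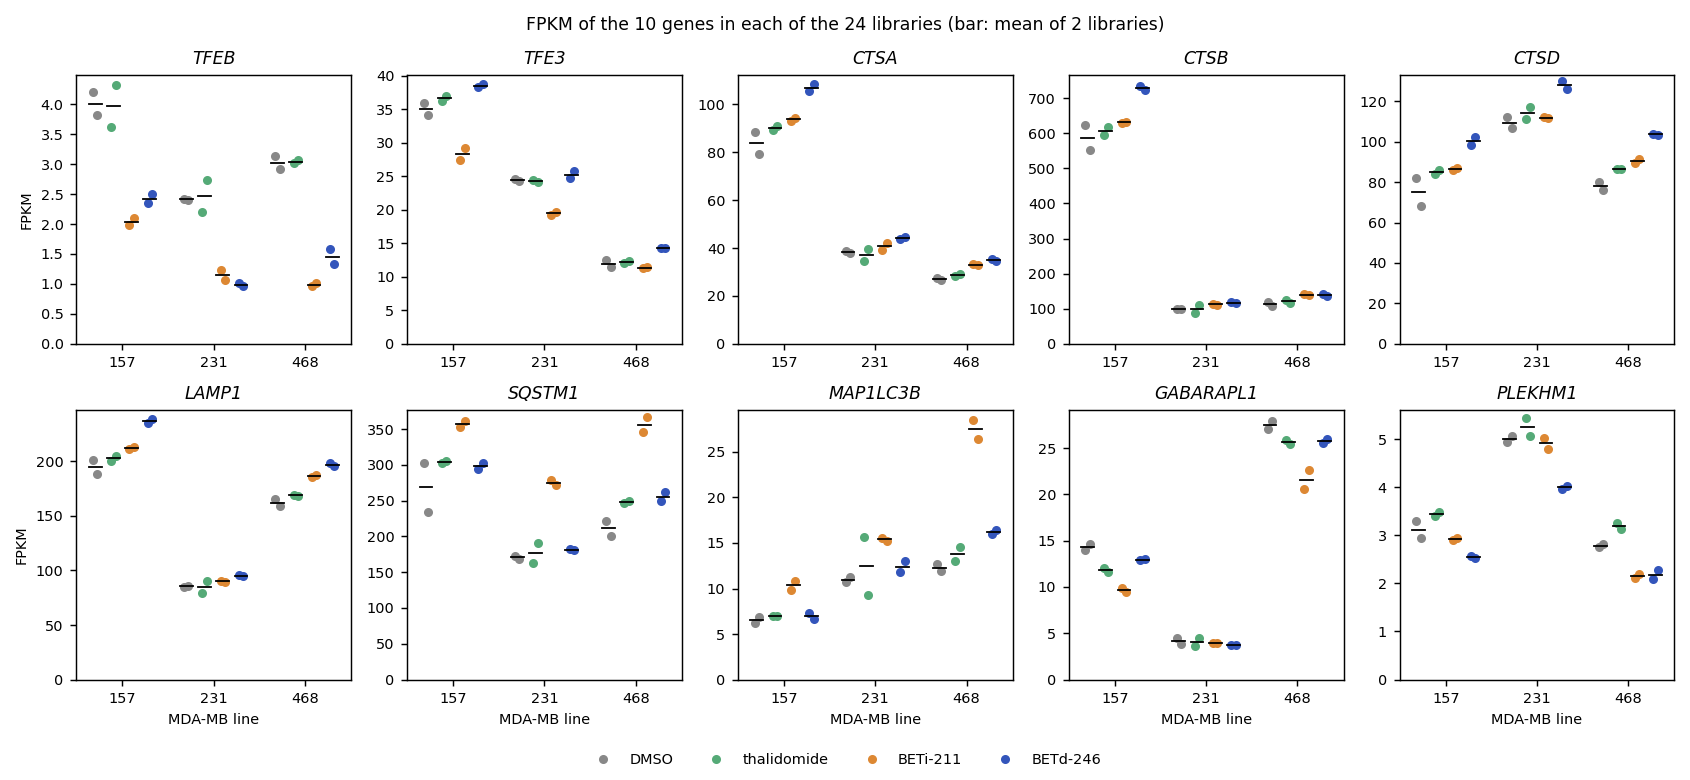
FPKM of the 10 genes in every library, 1 panel per gene on its own axis starting at 0, with the 3 lines side by side and the 4 treatments in colour; points are libraries and bars are group means. TFEB points with BETi-211 and BETd-246 lie below all 4 controls of their line, and CTSB in MDA-MB-157 stands far above the other lines.

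TFEB mRNA fell with both compounds in all 3 lines, to between 0.325 and 0.606 of the control mean. On the deposited scale it was the only one of the 10 genes called in the same direction in all 6 comparisons of a compound with controls. With upper-quartile scaling 5 to 7 of the 10 were called higher in each comparison, so this distinction depends on the scaling. TFE3, its relative, did not follow: it fell with BETi-211 in MDA-MB-157 and MDA-MB-231 and was higher with BETd-246 in both MDA-MB-157 and MDA-MB-468.

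TFEB in MDA-MB-157 was 4.20 and 3.82 FPKM with DMSO, 3.62 and 4.33 with thalidomide, 1.98 and 2.11 with BETi-211, and 2.35 and 2.49 with BETd-246. For MDA-MB-231 the TFEB values were 2.42 and 2.41 with DMSO, 2.20 and 2.74 with thalidomide, 1.24 and 1.07 with BETi-211, and 1.02 and 0.964 with BETd-246. For MDA-MB-468 they were 3.14 and 2.91 with DMSO, 3.02 and 3.06 with thalidomide, 0.963 and 1.01 with BETi-211, and 1.58 and 1.33 with BETd-246. Every library with a compound thus lay below all 4 controls of its line. With BETd-246 TFEB fell by 0.54 ± 0.07 (SE), 0.79 ± 0.07 and 0.72 ± 0.07 on the log2 scale (limma adjusted p = 6.32e-06, 7.2e-08 and 1.85e-07). With BETi-211 it fell by 0.71, 0.67 and 1.02 in the same order of lines (limma adjusted p = 3.11e-07, 4.93e-07 and 2.75e-09). TFEB stayed called in these 6 comparisons under every alternative that kept the gene, with a highest limma adjusted p of 0.000924. Its lowest value, 0.963 FPKM in a MDA-MB-468 library with BETi-211, rests on an estimated 55.2 fragments.

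The 12 groups of TFEB ran from 4.01 FPKM in MDA-MB-157 with DMSO to 0.987 in MDA-MB-468 with BETi-211. The next to last group, MDA-MB-231 with BETd-246 at 0.989, overlapped the last. MDA-MB-157 with BETd-246 at 2.42 stood level with the MDA-MB-231 controls, at 2.47 with thalidomide and 2.41 with DMSO, whose ranges it overlapped.

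TFE3 in MDA-MB-157 was 36.0 and 34.1 FPKM with DMSO, 36.3 and 37.0 with thalidomide, 27.4 and 29.3 with BETi-211, and 38.3 and 38.8 with BETd-246. TFE3 in MDA-MB-231 was 24.6 and 24.3 with DMSO, 24.5 and 24.1 with thalidomide, 19.2 and 19.7 with BETi-211, and 24.7 and 25.8 with BETd-246. TFE3 in MDA-MB-468 was 12.47 and 11.49 with DMSO, 12.02 and 12.3 with thalidomide, 11.26 and 11.51 with BETi-211, and 14.4 and 14.3 with BETd-246. The BETd-246 libraries were the highest of each line, and those with BETi-211 the lowest in MDA-MB-157 and MDA-MB-231. TFE3 fell by 0.33 and 0.31 with BETi-211 in those 2 lines (limma adjusted p = 1.55e-06 and 2.44e-06) and changed by -0.08 in MDA-MB-468 (adjusted p = 0.0862 by limma). That last value was called at -0.15 with the same-total scaling (limma adjusted p = 0.00411) and at -0.11 without DMSO replicate 2 (limma adjusted p = 0.0254), but turned to 0.06 with quantile normalization. With BETd-246 TFE3 rose by 0.23 ± 0.04 in MDA-MB-468 (limma adjusted p = 6.8e-05) and by 0.10 ± 0.04 in MDA-MB-157 (limma adjusted p = 0.0275), the latter call being lost with all libraries scaled to the same total (0.01, limma adjusted p = 0.856). That MDA-MB-157 call was also lost without DMSO replicate 2, thalidomide replicate 1 or either BETd-246 library (limma adjusted p of 0.0678 to 0.148). In MDA-MB-231 the difference was 0.05 (limma adjusted p = 0.299), and -0.05 with the same total, but it was called at 0.13, 0.12 and 0.24 with upper-quartile scaling, quantile normalization and median-of-ratios scaling (limma adjusted p = 0.00439, 0.0139 and 2.99e-05).

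The share of TFEB in the TFEB and TFE3 total moved accordingly. In MDA-MB-157 it was 6.74% and 6.71% with BETi-211 and 5.77% and 6.04% with BETd-246, below the control range given above. MDA-MB-231 libraries held 6.07% and 5.14% with BETi-211 and 3.95% and 3.60% with BETd-246. MDA-MB-468 libraries held 7.88% and 8.07% with BETi-211 and 9.93% and 8.51% with BETd-246. No library with a compound overlapped the controls of its line in this share. MITF, the third measured gene of the family and the master factor of melanocytes, fell with BETd-246 by 0.44 in MDA-MB-231 and by 0.29 in MDA-MB-468, and with BETi-211 by 0.64 in MDA-MB-231. Under 1 of the 5 scalings each, the BETd-246 calls of MITF were lost, at -0.13 for MDA-MB-231 and, for MDA-MB-468, 0.04. In MDA-MB-157 MITF was not called with either compound on the deposited scale, but 2 of 5 scalings called it with BETd-246 and 1 of 5 with BETi-211.

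**Figure D2:**
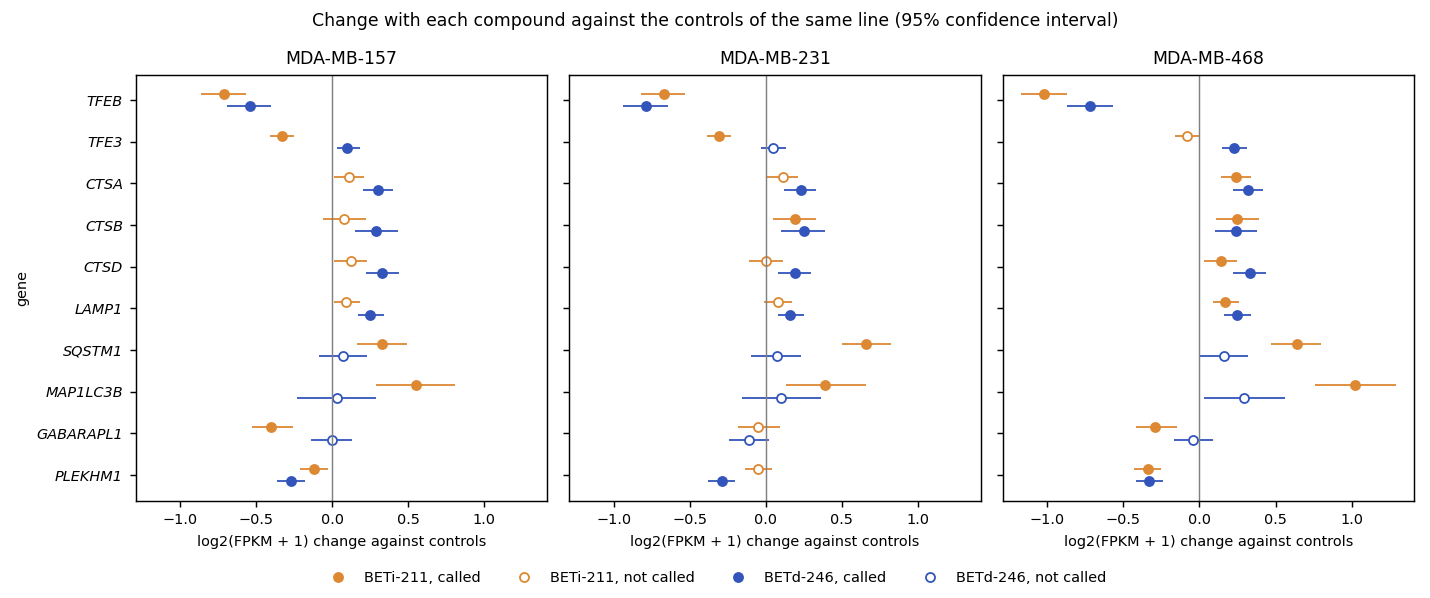
Change of each of the 10 genes on the log2(FPKM + 1) scale against the controls of its line, with 95% intervals from limma; 1 panel per line, both compounds in each. TFEB lies left of 0 for both compounds in every line, while SQSTM1 and MAP1LC3B lie right of 0 with BETi-211.

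The 3 cathepsins and LAMP1 rose with BETd-246 in all 3 lines, by modest amounts of 0.16 to 0.33 on the log2 scale. With BETi-211 all 4 rose in MDA-MB-468, CTSB also in MDA-MB-231, and none was called in MDA-MB-157 on the deposited scale, although all 4 were with upper-quartile scaling. Without DMSO replicate 1 of MDA-MB-157, CTSA, CTSD and LAMP1 were called there with BETi-211 (limma adjusted p = 0.0135, 0.000426 and 0.0321). Without thalidomide replicate 2 of MDA-MB-231, CTSA and LAMP1 were called there (limma adjusted p = 0.00328 and 0.00123). These 4 genes supply the lysosome: CTSB and CTSD are proteases, CTSA a carboxypeptidase that also protects other enzymes, and LAMP1 lines the membrane.

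CTSD in MDA-MB-157 was 82.2 and 68.1 FPKM with DMSO, 84.2 and 86.1 with thalidomide, 86.2 and 87.1 with BETi-211, and 98.5 and 102.3 with BETd-246. In MDA-MB-231 CTSD was 112.1 and 106.6, 111.4 and 117.1, 112.0 and 111.7, and 130.1 and 125.8 in the same order of treatments. In MDA-MB-468 CTSD was 80.0 and 76.3, 86.3 and 86.3, 89.4 and 91.5, and 104.0 and 103.2. The BETd-246 libraries lay above all others of their line. CTSD rose by 0.33 ± 0.05, 0.19 ± 0.05 and 0.33 ± 0.05 with BETd-246 (limma adjusted p = 7.68e-05, 0.00636 and 5.49e-05), and the MDA-MB-231 call was lost with the same-total scaling (0.09, limma adjusted p = 0.12) and without BETd-246 replicate 1 (0.17, limma adjusted p = 0.0748). With BETi-211 CTSD rose in MDA-MB-468 only, by 0.14 (limma adjusted p = 0.0361), and 10 of 19 alternatives ended that call, among them the omission of DMSO replicate 2 or of any thalidomide or BETi-211 library of the line (limma adjusted p of 0.0624 to 0.186). CTSD shares 41.7% of its exon bases with a gene model on the same strand, AC068580.4, whose reads cannot be told apart from its own.

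LAMP1 in MDA-MB-157 was 201.2 and 188.3 FPKM with DMSO, 200.3 and 205.3 with thalidomide, 211.3 and 212.9 with BETi-211, and 234.8 and 239.0 with BETd-246. In MDA-MB-231 LAMP1 was 84.8 and 85.9, 79.6 and 90.4, 90.3 and 89.8, and 95.5 and 95.1. In MDA-MB-468 LAMP1 was 165.7 and 158.7, 169.5 and 168.4, 185.9 and 187.5, and 198.5 and 195.8. In each line the BETd-246 libraries ranked first and those with BETi-211 next, except that a thalidomide library of MDA-MB-231 overlapped BETi-211. LAMP1 rose with BETd-246 by 0.25, 0.16 and 0.25 (limma adjusted p = 8.6e-05, 0.00398 and 7.92e-05), the MDA-MB-231 call being lost with the same-total scaling (0.06, limma adjusted p = 0.126). With BETi-211 it rose by 0.17 in MDA-MB-468 (limma adjusted p = 0.00201) and was 0.09 and 0.08 higher, not called, in the other lines.

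CTSA means went from 87.0 ± 5.17 FPKM in the MDA-MB-157 controls (SD, n = 4) to 106.9 ± 2.13 with BETd-246 (SD, n = 2). The matching CTSA means were 37.7 ± 2.166 and 44.2 ± 0.444 in MDA-MB-231, and 28.0 ± 1.07 and 35.1 ± 0.476 in MDA-MB-468. CTSA rose with BETd-246 by 0.30, 0.23 and 0.32 (limma adjusted p = 7.09e-05, 0.000963 and 2.98e-05), and no alternative ended these calls. CTSB rose by 0.29, 0.25 and 0.24 (limma adjusted p = 0.00202, 0.00664 and 0.00619), but quantile normalization ended its call in MDA-MB-157 (0.07, limma adjusted p = 0.181). With thalidomide alone as the control, the CTSB call in MDA-MB-468 was lost (0.19, limma adjusted p = 0.0505). Without BETd-246 replicate 1 it was lost both there and in MDA-MB-231 (limma adjusted p = 0.0759 and 0.0657). With BETi-211 CTSA rose by 0.24 and CTSB by 0.25 in MDA-MB-468, and CTSB by 0.19 in MDA-MB-231 (limma adjusted p = 0.000477, 0.00483 and 0.0253), the last being lost with the same-total scaling (0.11, limma adjusted p = 0.087). That CTSB call was also lost without DMSO replicate 2, thalidomide replicate 1 or either BETi-211 library (limma adjusted p of 0.052 to 0.128).

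SQSTM1, the cargo receptor, and MAP1LC3B, which encodes the membrane tag LC3B, rose with BETi-211 in all 3 lines. With BETd-246 neither was called in any line on the deposited scale, although median-of-ratios scaling called SQSTM1 in all 3 lines and 3 of the 4 other scalings called MAP1LC3B in MDA-MB-468. GABARAPL1, another ATG8 gene, fell with BETi-211 in both MDA-MB-157 and MDA-MB-468.

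SQSTM1 in MDA-MB-157 was 302.3 and 234.5 FPKM with DMSO, 302.0 and 304.8 with thalidomide, 353.3 and 360.8 with BETi-211, and 294.3 and 303.0 with BETd-246. In MDA-MB-231 SQSTM1 was 173.2 and 168.2, 163.5 and 190.7, 278.3 and 271.4, and 182.2 and 181.0. In MDA-MB-468 SQSTM1 was 222.0 and 200.9, 246.8 and 248.8, 346.3 and 366.2, and 250.1 and 261.4. BETi-211 libraries lay above all others of their line, while the BETd-246 libraries overlapped the controls in MDA-MB-157 and MDA-MB-231 and lay just above them in MDA-MB-468. SQSTM1 rose with BETi-211 by 0.33 ± 0.08, 0.66 ± 0.08 and 0.64 ± 0.08 (limma adjusted p = 0.00217, 2.21e-06 and 2.84e-06), and no alternative ended these calls. With BETd-246 it was 0.07, 0.07 and 0.16 higher (limma adjusted p = 0.47, 0.519 and 0.0926). Those last values turned to -0.10, -0.06 and -0.01 with quantile normalization and were called at 0.23, 0.27 and 0.35 with median-of-ratios scaling. Without DMSO replicate 1 of MDA-MB-157, SQSTM1 was called there with BETd-246 (0.16, limma adjusted p = 0.0275). The MRNIP gene model covers 20.7% of the SQSTM1 exon bases on the other strand, and the libraries do not keep strand.

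MAP1LC3B in MDA-MB-157 was 6.19 and 6.90 FPKM with DMSO, 7.03 and 6.96 with thalidomide, 9.89 and 10.9 with BETi-211, and 7.27 and 6.61 with BETd-246. In MDA-MB-231 MAP1LC3B was 10.7 and 11.2, 15.6 and 9.23, 15.6 and 15.2, and 11.8 and 13. In MDA-MB-468 MAP1LC3B was 12.6 and 11.9, 13.01 and 14.56, 28.5 and 26.5, and 15.96 and 16.39. MDA-MB-468 with BETi-211 was the highest of the 12 groups, at 27.5 ± 1.42 (SD, n = 2), and in MDA-MB-231 the first thalidomide library matched the BETi-211 level. MAP1LC3B rose with BETi-211 by 0.55 ± 0.12, 0.39 ± 0.12 and 1.02 ± 0.12 (limma adjusted p = 0.00156, 0.0142 and 2.85e-06). The MDA-MB-231 call was lost in 6 of 19 alternatives, among them the same-total scaling (0.32, limma adjusted p = 0.0578) and the omission of BETi-211 replicate 1 or 2 (limma adjusted p = 0.0813 and 0.0632). With BETd-246 the differences were 0.03, 0.10 and 0.29 (limma adjusted p = 0.857, 0.533 and 0.0559), of which the first turned to -0.05 with the same-total scaling. Without the first thalidomide library of MDA-MB-231, MAP1LC3B was called there with BETd-246 as well (0.28, limma adjusted p = 0.00175). A near-identical copy, MAP1LC3B2, makes the assignment of its reads uncertain.

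GABARAPL1 in MDA-MB-157 was 13.96 and 14.6 FPKM with DMSO, 12.1 and 11.6 with thalidomide, 9.84 and 9.44 with BETi-211, and 12.94 and 12.99 with BETd-246. In MDA-MB-468 GABARAPL1 was 27.0 and 27.9, 25.9 and 25.4, 20.6 and 22.7, and 25.6 and 26.0. In MDA-MB-231 all 8 values of GABARAPL1 lay between 3.58 and 4.49, with all groups overlapping the controls. GABARAPL1 fell with BETi-211 by 0.40 in MDA-MB-157 and by 0.29 in MDA-MB-468 (limma adjusted p = 5.95e-05 and 0.000953), under all 5 scalings. Its BETd-246 differences of 0.00, -0.11 and -0.04 were not called and turned positive with median-of-ratios scaling (0.15, 0.05 and 0.14). Quantile normalization called GABARAPL1 higher with BETd-246 in MDA-MB-157 (0.17, limma adjusted p = 0.0315) and in MDA-MB-231 (0.19, limma adjusted p = 0.0237). The same-total scaling called it lower in MDA-MB-231 (-0.19, limma adjusted p = 0.0179), so the scalings gave opposite calls there. Without thalidomide replicate 1 of MDA-MB-231, GABARAPL1 was called lower there with BETd-246 (-0.17, limma adjusted p = 0.0105). GABARAPL1 too has a near-identical copy, GABARAPL3, so its reads may be split.

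The ratio of MAP1LC3B to GABARAPL1 puts the 2 ATG8 genes on 1 scale within a library. It was 0.443 to 0.601 in MDA-MB-157 controls, 1.01 and 1.15 with BETi-211, and 0.562 and 0.509 with BETd-246. In MDA-MB-468 it was 0.428 to 0.573, 1.39 and 1.17, and 0.624 and 0.630. In MDA-MB-231 it was 2.06 to 4.36 in controls, and the libraries with either compound lay inside that range. SQSTM1 against LAMP1 showed the other contrast: the ratio was 1.96 to 2.11 in MDA-MB-231 controls, 3.08 and 3.02 with BETi-211 and 1.91 and 1.90 with BETd-246. In MDA-MB-468 it was 1.27 to 1.48, 1.86 and 1.95, and 1.26 and 1.34, and in MDA-MB-157 1.25 to 1.51, 1.67 and 1.70, and 1.25 and 1.27. BETi-211 libraries lay above the controls of their line in this ratio in all 3 lines.

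**Figure D3:**
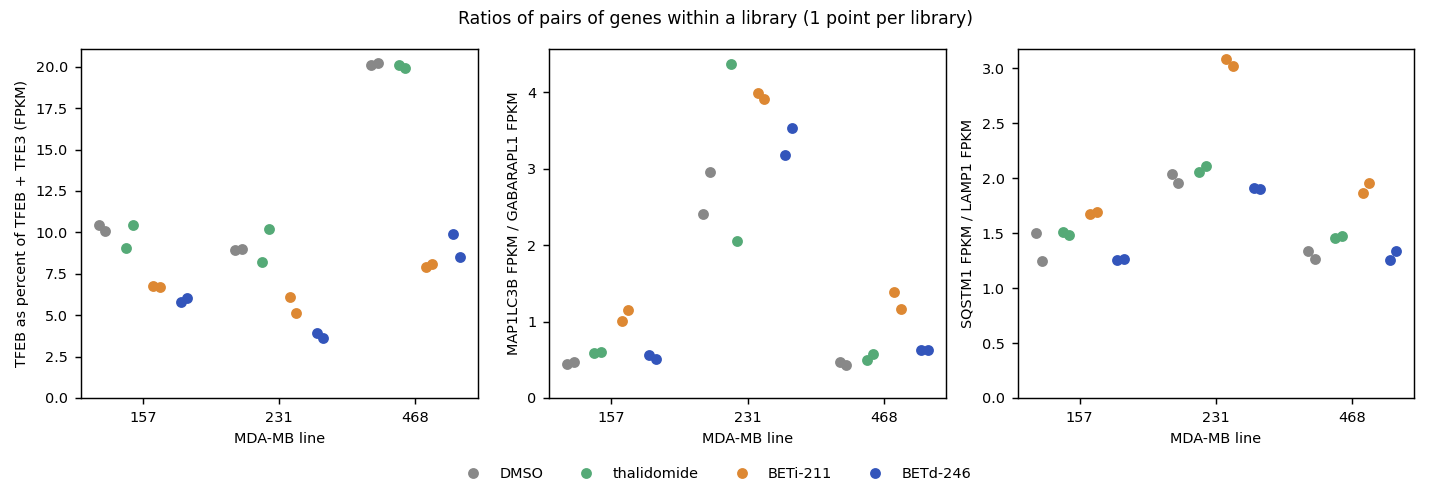
Ratios between genes within each library, by line and treatment: TFEB as a percentage of TFEB plus TFE3, MAP1LC3B over GABARAPL1, and SQSTM1 over LAMP1; points are libraries. The TFEB share is below the controls with both compounds in every line, and SQSTM1 over LAMP1 is above them with BETi-211.

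PLEKHM1, an adaptor that tethers autophagosomes and late endosomes to lysosomes, was called lower with BETd-246 in all 3 lines, as TFEB was, but not with quantile normalization. PLEKHM1 in MDA-MB-157 was 3.30 and 2.94 FPKM with DMSO, 3.41 and 3.48 with thalidomide, 2.91 and 2.95 with BETi-211, and 2.58 and 2.52 with BETd-246. In MDA-MB-231 PLEKHM1 was 4.94 and 5.06, 5.44 and 5.07, 5.02 and 4.81, and 3.98 and 4.03. In MDA-MB-468 PLEKHM1 was 2.75 and 2.82, 3.25 and 3.14, 2.11 and 2.21, and 2.09 and 2.27. All BETd-246 libraries lay below the controls of their line, and with BETi-211 those of MDA-MB-468 did so clearly. PLEKHM1 fell with BETd-246 by 0.27, 0.29 and 0.33 (limma adjusted p = 6.58e-05, 2.85e-05 and 7e-06), and with quantile normalization the differences were -0.05, 0.03 and -0.01. With BETi-211 it fell by 0.34 in MDA-MB-468 and by 0.12 in MDA-MB-157 (limma adjusted p = 4.54e-06 and 0.0282), the latter lost in 9 of 19 alternatives, among them the omission of DMSO replicate 1, thalidomide replicate 2 or either BETi-211 library (limma adjusted p of 0.0654 to 0.142). The MDA-MB-231 difference was -0.05 (limma adjusted p = 0.351) and became 0.01 with upper-quartile scaling. PLEKHM1P1, a near-identical copy, makes its reads uncertain.

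Counted over the genes, BETd-246 moved 7 of 10 in MDA-MB-157 (5 higher, 2 lower), 6 in MDA-MB-231 (4 and 2) and 7 in MDA-MB-468 (5 and 2). The same test called 51.5%, 48.1% and 53.9% of all genes in those lines, 19%, 14.8% and 20.1% higher and 32.4%, 33.3% and 33.7% lower. BETi-211 moved 6 (2 and 4), 5 (3 and 2) and 9 (6 and 3) of the 10, against 45.8%, 50.1% and 53.9% of all genes, 14.9%, 18.7% and 21.3% higher and 30.9%, 31.4% and 32.5% lower. The median change over the 10 genes was 0.09, 0.08 and 0.24 with BETd-246 and 0.09, 0.04 and 0.16 with BETi-211. Over all genes it was -0.03, -0.05 and -0.03 with BETd-246 and -0.03, -0.03 and -0.01 with BETi-211. Calls were thus common in these lines, and the totals do not set the 10 genes apart. Both compounds were set against the same control libraries, so their counts are not independent.

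The values of single libraries were also compared without a test. With BETd-246 both libraries lay above all 4 controls for 5, 5 and 7 of the 10 genes and below for 2, 2 and 2, where 25.4%, 19.9% and 25% of all genes lay above and 37.4%, 38% and 38.1% below. With BETi-211 the counts were 6, 2 and 6 above and 3, 2 and 3 below, against 22.1%, 22.4% and 27.2% of all genes above and 37.3%, 34.4% and 37% below. In MDA-MB-157 with BETi-211 these counts lean to the higher side, whereas the limma calls gave 2 higher and 4 lower.

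BETd-246 and BETi-211 were then set against each other, at 100 nM and 1000 nM as given, so the contrast is between these 2 treatments and not between the compounds at matched doses. TFE3 was higher with BETd-246 than with BETi-211 in every line, by 0.43 ± 0.04, 0.36 ± 0.04 and 0.31 ± 0.04 (limma adjusted p = 4.26e-07, 3.33e-06 and 1.97e-05). SQSTM1 was lower with BETd-246 in every line, by 0.26, 0.59 and 0.48 (limma adjusted p = 0.0269, 4.5e-05 and 0.000371), although in MDA-MB-157 the call was lost with median-of-ratios scaling (-0.18, limma adjusted p = 0.0829). CTSD was higher by 0.21, 0.19 and 0.19 (limma adjusted p = 0.0101, 0.0176 and 0.016), the MDA-MB-157 call being lost with quantile normalization (0.13, limma adjusted p = 0.0709). With 2 libraries on each side these contrasts often rested on single libraries. The MDA-MB-157 calls of SQSTM1, CTSB and PLEKHM1 were lost without any 1 of the 4 libraries, those of CTSA, CTSD and LAMP1 without BETi-211 replicate 1 or BETd-246 replicate 2, and that of MAP1LC3B without BETi-211 replicate 2 or BETd-246 replicate 2 (limma adjusted p of 0.0553 to 0.127). CTSD lost its call without 3 of the 4 libraries in both other lines (limma adjusted p of 0.0558 to 0.11). In all, 9, 4 and 6 of the 10 genes were called (6 higher and 3 lower, 2 and 2, 4 and 2). Of all genes 46.5%, 41.7% and 43.3% were called, 24.2%, 17.8% and 20.1% higher and 22.3%, 23.9% and 23.2% lower.

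MAP1LC3B was lower with BETd-246 than with BETi-211 by 0.52 in MDA-MB-157 and by 0.73 in MDA-MB-468 (limma adjusted p = 0.00767 and 0.000581). In MDA-MB-231 the MAP1LC3B difference was -0.29, with a 95% interval of -0.60 to 0.01. GABARAPL1 was higher with BETd-246 by 0.39 in MDA-MB-157 and by 0.25 in MDA-MB-468 (limma adjusted p = 0.000332 and 0.0106). The latter was lost without BETi-211 replicate 1 (0.18, limma adjusted p = 0.122) or BETd-246 replicate 2 (0.24, limma adjusted p = 0.0567). GABARAPL1 differed by -0.06 in MDA-MB-231 (95% interval -0.21 to 0.09), where scaling turned it to 0.14. TFEB was 0.30 ± 0.08 higher with BETd-246 than with BETi-211 in MDA-MB-468 (limma adjusted p = 0.0058), a call lost without BETd-246 replicate 1 (0.23, limma adjusted p = 0.0806). In MDA-MB-157 the TFEB difference was 0.17 (95% interval 0.00 to 0.34), called at 0.22 with median-of-ratios scaling and at 0.37 with quantile normalization (limma adjusted p = 0.02 and 0.0024), and in MDA-MB-231 -0.11 (95% interval -0.28 to 0.06), which became 0.10 with quantile normalization. CTSB in MDA-MB-468 differed by -0.01 (95% interval -0.17 to 0.16) and PLEKHM1 there by 0.01 (95% interval -0.09 to 0.11), although quantile normalization called PLEKHM1 higher with BETd-246 (0.21, limma adjusted p = 0.00329). Median-of-ratios scaling added CTSA and LAMP1 to the genes called higher in this contrast, for MDA-MB-231 at 0.23 and 0.20 (limma adjusted p = 0.000968 and 0.00151), for MDA-MB-468 at 0.18 each (limma adjusted p = 0.00555 and 0.0028).

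Thalidomide alone differed from DMSO by -0.25 to 0.23 on the log2 scale over these genes and lines. With 2 libraries on each side, the lack of a call does not show equal levels. None of the 10 was called against DMSO in MDA-MB-157, MDA-MB-231 or MDA-MB-468 (limma), where 0.184%, 0% and 0% of all genes were called. At an unadjusted p below 0.05 limma gave GABARAPL1 at -0.25, CTSD at 0.19 and PLEKHM1 at 0.11 in MDA-MB-157. In MDA-MB-468 it gave SQSTM1 at 0.23, PLEKHM1 at 0.15 and CTSD at 0.14, and in MDA-MB-231 none. The share of all genes at that threshold is not given here, so it does not set these genes apart. GABARAPL1 in MDA-MB-157 had the smallest of these (unadjusted p = 0.00286, limma adjusted p = 0.145).

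The response to BETi-211 differed between lines for 6 of the 10 genes by a limma F test of the line differences, against 30.8% of all genes. These were TFE3, PLEKHM1, GABARAPL1, TFEB, MAP1LC3B and SQSTM1, with adjusted p-values by limma of 0.00196, 0.00387, 0.0153, 0.0208, 0.0262 and 0.0445. TFEB and MAP1LC3B moved most in MDA-MB-468 and TFE3 least there. With DMSO alone as the control the count was 3, and with thalidomide alone it was 2. TFE3 and PLEKHM1 kept their calls without any 1 library, while the omission of single libraries raised the limma adjusted p to at most 0.0994 for TFEB, 0.126 for MAP1LC3B, 0.162 for SQSTM1 and 0.0585 for GABARAPL1. CTSA, CTSB, CTSD and LAMP1 were not called in this test (limma adjusted p of 0.236 to 0.414). For BETd-246 none of the 10 genes was called between the lines, against 19.6% of all genes. TFE3 came nearest (limma adjusted p = 0.0508, unadjusted p = 0.01). It was the only one at an unadjusted p below 0.05, a threshold for which the share of all genes is not given here. A pseudocount of 0.1 in place of 1 raised that count to 2, with TFEB and TFE3.

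Beyond the 10 genes, 150 other genes of lysosomes and autophagy were measured from lists drawn up for this pathway. With BETd-246 63, 50 and 57 of them rose and 24, 22 and 27 fell, and with BETi-211 31, 53 and 58 rose and 29, 19 and 19 fell. As shares these were 42%, 33.3% and 38% higher and 16%, 14.7% and 18% lower with BETd-246, where 19%, 14.8% and 20.1% of all genes were higher and 32.4%, 33.3% and 33.7% lower. With BETi-211 they were 20.7%, 35.3% and 38.7% higher and 19.3%, 12.7% and 12.7% lower, where 14.9%, 18.7% and 21.3% of all genes were higher and 30.9%, 31.4% and 32.5% lower. Their median changes were 0.10, 0.07 and 0.08 with BETd-246 and 0.03, 0.06 and 0.09 with BETi-211, beside the medians over all genes given above. These splits move with the scaling: with all libraries at the same total, 16 to 39 of the 160 genes (members included) were higher and 32 to 45 lower over the 6 comparisons, and with median-of-ratios scaling 66 to 118 were higher and 14 to 17 lower. The whole table moved as well. With BETd-246, 37%, 30.7% and 37.4% of all called genes were higher on the deposited scale. With the same total these shares were 15.8%, 9.88% and 17.9%, and with median-of-ratios scaling 64.7%, 65% and 64.1%. List counts given below for another scaling stand beside these shares.

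Lysosomal hydrolases and their activators, 42 genes without the cathepsins above, leaned to the higher side. With BETd-246 29, 23 and 24 rose and 2, 2 and 1 fell, and with BETi-211 17, 24 and 25 rose and none fell, while all 5 scalings kept more higher than lower calls in each comparison. As shares, 69%, 54.8% and 57.1% were higher and 4.76%, 4.76% and 2.38% lower with BETd-246. With BETi-211 40.5%, 57.1% and 59.5% were higher, beside the shares of all genes given above. With the same-total scaling the counts were 17, 6 and 12 higher and 2, 2 and 3 lower with BETd-246. LGMN, the asparaginyl endopeptidase legumain, rose by 0.26, 0.31 and 0.25 with BETd-246 and by 0.39, 0.88 and 0.85 with BETi-211 (largest limma adjusted p = 0.000363). These calls held under all 5 scalings, with BETd-246 values of at least 0.16, 0.22 and 0.15. In MDA-MB-231 LGMN went from 28.2 ± 1.84 FPKM (SD, n = 4) to 52.5 ± 0.419 with BETi-211 (SD, n = 2). The aminopeptidase CTSH rose in all 6 comparisons as well, by 0.18 to 0.32. SGSH and PLA2G15, chosen after their values were seen, were the hydrolases that fell with BETd-246: SGSH by 0.37 in MDA-MB-157 and 0.48 in MDA-MB-231, and PLA2G15 by 0.37, 0.24 and 0.53.

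Lysosomal membrane proteins other than LAMP1 (19 genes) gave 10, 5 and 8 higher and 0, 0 and 2 lower calls with BETd-246, and 4, 8 and 9 higher and 2, 2 and 4 lower with BETi-211. As shares, 52.6%, 26.3% and 42.1% were higher and 0%, 0% and 10.5% lower with BETd-246. With BETi-211 21.1%, 42.1% and 47.4% were higher and 10.5%, 10.5% and 21.1% lower, beside the shares of all genes given above. LAMP2, the partner of LAMP1, rose by 0.20, 0.19 and 0.20 with BETd-246 and by 0.16, 0.16 and 0.27 with BETi-211, called under all 5 scalings although its smallest values were 0.07, 0.09 and 0.09 with BETd-246 and 0.10, 0.09 and 0.17 with BETi-211. The 17 subunits of the vacuolar ATPase, the proton pump, gave 8, 9 and 5 higher and 2, 2 and 3 lower with BETd-246, which the same-total scaling turned to 3, 3 and 3 higher and 4, 3 and 4 lower. On the deposited scale 47.1%, 52.9% and 29.4% were higher and 11.8%, 11.8% and 17.6% lower, beside the shares of all genes given above. With BETi-211 17.6%, 47.1% and 58.8% of the subunits were higher and 23.5%, 0% and 5.88% lower.

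The counts for genes that control TFEB moved with the scaling, as the shares of all genes did. Of 19 genes of mTORC1, the Rag GTPases and folliculin, 4, 4 and 5 rose and 7, 7 and 8 fell with BETd-246, and 2, 0 and 3 rose and 9, 4 and 4 fell with BETi-211, but median-of-ratios scaling turned the BETd-246 counts to 11, 10 and 11 higher and 4, 4 and 5 lower. On the deposited scale 21.1%, 21.1% and 26.3% of the 19 were higher and 36.8%, 36.8% and 42.1% lower with BETd-246, near the shares of all genes given above. With BETi-211 10.5%, 0% and 15.8% were higher and 47.4%, 21.1% and 21.1% lower. FLCN, folliculin, fell under every scaling in all 6 comparisons, by 0.71, 0.86 and 0.62 with BETd-246 and by 0.53, 0.34 and 0.59 with BETi-211 (largest limma adjusted p = 3.17e-05), although with BETd-246 its smallest values over the scalings were -0.56 for MDA-MB-231 and, for MDA-MB-468, -0.27. FLCN in MDA-MB-231 went from 13.3 ± 0.424 FPKM (SD, n = 4) to 6.90 ± 0.133 with BETd-246 (SD, n = 2). FNIP1, the partner of folliculin, fell by 0.62, 0.57 and 0.46 with BETd-246, and by as little as 0.21 in MDA-MB-468 over the scalings.

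Among 12 genes of autophagy initiation 2, 2 and 2 rose and 6, 5 and 6 fell with BETd-246, which median-of-ratios scaling turned to 3, 5 and 4 higher and 4, 5 and 5 lower. On the deposited scale 16.7% were higher in each line and 50%, 41.7% and 50% lower. Of all genes 19%, 14.8% and 20.1% were higher and 32.4%, 33.3% and 33.7% lower. With BETi-211 8.33%, 25% and 25% of the 12 were higher and 33.3%, 16.7% and 16.7% lower. Of all genes 14.9%, 18.7% and 21.3% were higher and 30.9%, 31.4% and 32.5% lower with BETi-211. NRBF2, a subunit of the class III phosphatidylinositol 3-kinase complex, fell with BETd-246 by 1.32, 1.35 and 1.66 and rose with BETi-211 by 0.27, 0.21 and 0.39 (largest limma adjusted p = 0.00256), under all 5 scalings. In MDA-MB-468 NRBF2 was 10.3 ± 0.459 FPKM in controls (SD, n = 4), 13.8 ± 0.217 with BETi-211 and 2.57 ± 0.314 with BETd-246 (SD, n = 2 each). NRBF2 thus moved in opposite directions with the 2 treatments, and their direct difference was -1.59, -1.56 and -2.05 (largest limma adjusted p = 3.67e-12). ATG14, of the same complex, fell with both compounds in every line, by 0.41 to 0.63 on the deposited scale. These calls held under all 5 scalings, but the smallest BETd-246 values over them were -0.30, -0.30 and -0.10, and the smallest BETi-211 value was -0.26 in MDA-MB-468. ATG16L1, which directs ATG8 proteins to the growing membrane, is of another list, 15 genes of autophagosome growth and ATG8 conjugation. It fell by 0.61, 0.77 and 0.80 with BETd-246 and by 0.33, 0.54 and 0.36 with BETi-211. Its BETd-246 value in MDA-MB-231 was -0.46 at the smallest over the scalings. On the deposited scale 20%, 6.67% and 20% of that list were higher and 13.3%, 6.67% and 13.3% lower with BETd-246. With BETi-211 13.3%, 26.7% and 20% were higher and 20%, 20% and 13.3% lower. ATG16L1 thus does not stand for its list. ATG9A and ATG10, also of that list, changed by 0.19, 0.03 and 0.17 and by 0.09, 0.68 and 0.01 with BETd-246.

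The ATG8 family held 3 further measured genes. MAP1LC3A rose with BETd-246 by 0.28, 0.33 and 0.17 (limma adjusted p = 0.00186, 0.00063 and 0.0428), though in MDA-MB-468 its mean was 0.147 FPKM with BETd-246 and 0.0228 in controls, near 0. GABARAP rose with BETd-246 by 0.29 in MDA-MB-157 and by 0.21 in MDA-MB-468, the latter called under 3 of 5 scalings. GABARAPL2 rose by 0.26 with BETi-211 in MDA-MB-468 under all 5 scalings. On the deposited scale it was called higher there with BETd-246 too, with means of 51.6 FPKM in controls and 56.4 with BETd-246. Of these 3 genes 66.7%, 33.3% and 100% were higher with BETd-246 and 0%, 66.7% and 33.3% with BETi-211. The share lower was 0% throughout, beside the shares of all genes given above. Of 7 autophagy receptors besides SQSTM1, 3, 2 and 3 rose with BETd-246 and none fell, which the same-total scaling turned to none higher and 3, 0 and 1 lower. With BETi-211 0, 2 and 1 of the receptors rose and 2, 1 and 1 fell. On the deposited scale 42.9%, 28.6% and 42.9% of the 7 were higher with BETd-246. With BETi-211 0%, 28.6% and 14.3% were higher and 28.6%, 14.3% and 14.3% lower, beside the shares of all genes given above. OPTN, optineurin, rose by 0.15, 0.13 and 0.10 with BETd-246, called under 4, 3 and 3 of the 5 scalings.

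Of 15 genes for fusion of autophagosomes with lysosomes other than PLEKHM1, 2, 3 and 4 rose and 5, 4 and 4 fell with BETd-246, and median-of-ratios scaling turned this to 5, 9 and 9 higher and 1, 2 and 2 lower. On the deposited scale 13.3%, 20% and 26.7% were higher and 33.3%, 26.7% and 26.7% lower, near the shares of all genes given above. With BETi-211 13.3%, 13.3% and 20% of the 15 were higher and 33.3%, 40% and 33.3% lower. VPS18, a core subunit of the HOPS tethering complex that PLEKHM1 binds, fell on the deposited scale by at least 1.08 in every line with BETd-246 and by 0.48, 0.28 and 0.45 with BETi-211 (largest limma adjusted p = 0.00149). All 5 scalings kept these calls except that of MDA-MB-231 with BETi-211, which 4 of 5 kept, but the smallest BETd-246 values over the scalings were -0.72 for MDA-MB-231 and, for MDA-MB-468, -0.81. VPS18 in MDA-MB-157 went from 18.04 ± 1.27 FPKM (SD, n = 4) to 6.79 ± 0.294 with BETd-246 (SD, n = 2). VPS16, another HOPS subunit, rose by 0.25, 0.18 and 0.20 with BETd-246, the MDA-MB-231 call being lost under 1 of the 5 scalings (0.09, limma adjusted p = 0.0633).

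**Figure D4:**
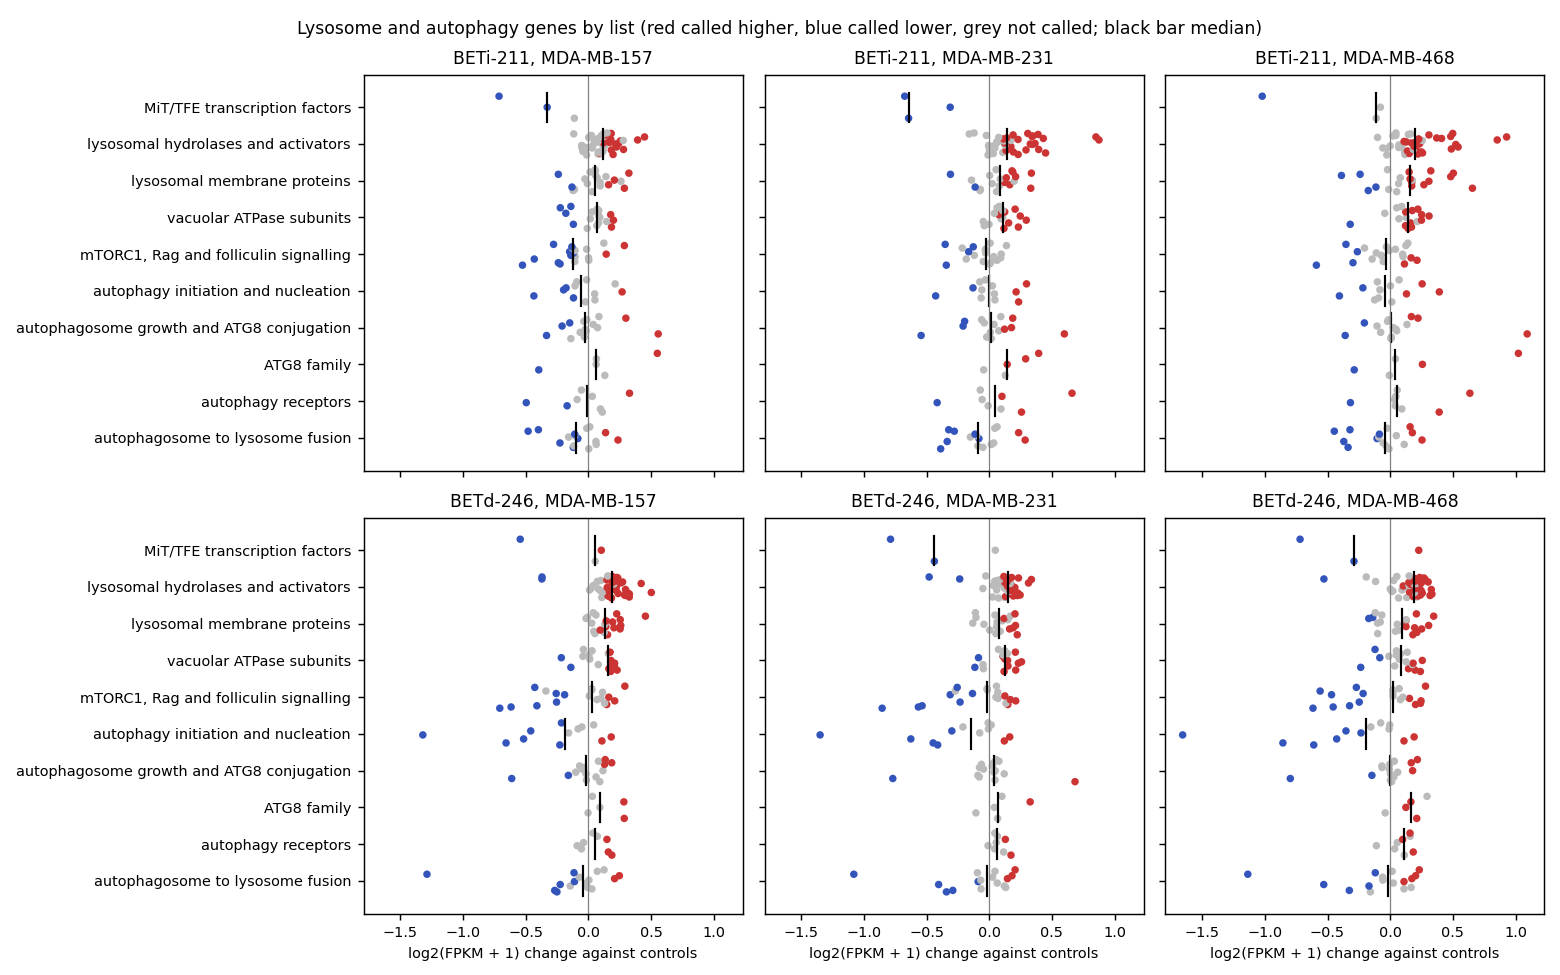
Change of each gene on the log2(FPKM + 1) scale against the controls of its line, by pathway list, members included, for both compounds. Red points are called higher and blue points lower (limma, adjusted p below 0.05), grey points are not called, and black bars are list medians. With members left out, of 42 lysosomal hydrolases 29, 23 and 24 are higher and 2, 2 and 1 lower with BETd-246. Of 12 initiation genes 2, 2 and 2 are higher and 6, 5 and 6 lower with it on the deposited scale. Of all genes 19%, 14.8% and 20.1% are higher and 32.4%, 33.3% and 33.7% lower with it.

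Genes most like each member were sought among 11473 genes by Pearson correlation over the 24 libraries, after removal of each line's mean. TFEB was most like WAC and ATXN7L3B, both at r = 0.980. SQSTM1 was most like NOSIP (r = 0.978) and WFS1 (r = 0.972), and MAP1LC3B most like SDCBP and DLST (both r = 0.942). LAMP1 was most like POLD2 (r = 0.979) and HEXA (r = 0.978), the latter a lysosomal hydrolase, and CTSD most like BAG6 and SPNS1 (both r = 0.966), the latter a lysosomal transporter. CTSA was most like NOC2L and HLA-C (both r = 0.975), CTSB most like RHOC (r = 0.969) and PSMB4 (r = 0.968), and TFE3 most like CYB561 (r = 0.944) and LRRC41 (r = 0.942). PLEKHM1 was most like TNKS1BP1 (r = 0.955) and ASB7 (r = 0.938), and GABARAPL1 had the weakest likeness, to PRPF18 (r = 0.865) and HIF1A (r = 0.864). Within the 10 genes TFEB correlated with PLEKHM1 at 0.81, with GABARAPL1 at 0.61 and with TFE3 at 0.25. It correlated with MAP1LC3B at -0.76, CTSA at -0.75, LAMP1 at -0.73, CTSB at -0.72, SQSTM1 at -0.66 and CTSD at -0.57. All these values share the same libraries, treatments and depth and are descriptions only.

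In the GRCh38 annotation (GENCODE v29) the genes lie on 10 chromosomes: TFEB at chr6:41683978-41736259, TFE3 at chrX:49028726-49043486, CTSD at chr11:1752752-1764573 and PLEKHM1 at chr17:45435900-45490749 on the − strand, and CTSA at chr20:45890144-45898820, LAMP1 at chr13:113297241-113323672, SQSTM1 at chr5:179806398-179838078, MAP1LC3B at chr16:87383995-87404779 and GABARAPL1 at chr12:10212458-10223130 on the + strand. The values are for whole genes, exons summed. CTSA shares 17.7% of its exon bases with NEURL2 and 3.42% with PLTP on the other strand, MAP1LC3B shares 2.82% with FBXO31, and such reads cannot be told apart without strand.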

How the data were processed

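Gene expression was measured in 24 RNA-seq libraries (12 groups, 2 replicates each) made with random primers and without strand. The submitters' processing notes name Bowtie 0.12.8, bcl2fastq 2.17.1.14 and the build GRCh38.p5. The authors deposited 1 table of values per gene, taken here as FPKM from its values; which program, annotation and filter made them is not given in the sources used here. The table had been filtered before deposit, as the lowest of the genes' highest group means was 1.22 FPKM, so all 10 genes passed that filter. Depth of 42500000 to 64300000 fragments was estimated from the smallest steps of the FPKM values, with GENCODE v29 transcript lengths. Of the low values used, 60% to 100% per library lay within 0.1 of a whole step. The 55.2 fragments given for TFEB also rest on the median length of its 17 transcripts, 1022 bases. As the annotation behind the values is not known, these estimates carry an error of length besides counting error.

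Differences of log2(FPKM + 1) were fitted with limma 3.58.1 (R 4.3.3) over all 14114 genes with 1 coefficient for each group, a variance trend and no replicate block, with 12 residual and 3.32 prior degrees of freedom. Tests were two-sided, and p-values were Benjamini-Hochberg adjusted over all genes. The control of a line was the mean of its DMSO and thalidomide coefficients. The test was tested on simulated data first. Gene positions came from GENCODE v29 for 13951 of the genes. The 10 genes, the pathway lists and the rule for named genes were chosen with earlier results of these data known. That rule named all 10 genes, up to 3 others of each list with a highest group mean of at least 5 FPKM and the smallest adjusted p with BETd-246 averaged over the lines, all measured MiT/TFE and ATG8 genes, and the 2 genes most like each member.

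Alternatives were other scalings, a pseudocount of 0.1, a filter at 5 FPKM, each control alone, each line fitted alone, a robust fit, no variance trend, a replicate block and each library left out. Scaling to the same total without mitochondrial genes was added after seeing the data.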

Additional observations from a re-analysis of the deposited data

Results flagged for a closer look

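The response to BETi-211 differed between the 3 lines for 6 genes, by a limma F test of the line differences with Benjamini-Hochberg adjustment over all genes. TFE3 had an adjusted p of 0.00196, PLEKHM1 of 0.00387, GABARAPL1 of 0.0153, TFEB of 0.0208, MAP1LC3B of 0.0262 and SQSTM1 of 0.0445 in that limma test. GABARAPL1 fell in both MDA-MB-157 and MDA-MB-468 but changed by -0.05 in MDA-MB-231, where its level was lowest. TFE3 fell in MDA-MB-157 and MDA-MB-231 and changed by -0.08 in MDA-MB-468, the line with the least TFE3.

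In the 4 control libraries of MDA-MB-157, 1 library stood apart from the other 3 for each of 2 genes. SQSTM1 was 234.5 FPKM in DMSO replicate 2 and 302.0 to 304.8 in the others, a gap of 0.96 of the whole range. MAP1LC3B was 6.19 FPKM in DMSO replicate 1 and 6.90 to 7.03 in the others, a gap of 0.845. The limit for 4 samples is 0.829. Of 30 control groups examined (10 genes in 3 lines) these 2 passed it, and chance flags about 1 in 20 for a single group. The groups share libraries, so the flags are not independent, and the 4 controls hold both DMSO and thalidomide. DMSO replicate 2 of MDA-MB-157 was also the lowest control for TFE3, CTSA, CTSB, CTSD, LAMP1 and PLEKHM1. Its gaps there were 0.623 to 0.792, below the limit.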

How the results depend on the processing

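Of the 110 values of single genes, 65 were called, and 2 of these changed direction, both for PLEKHM1 with quantile normalization (MDA-MB-231 with BETd-246, and BETd-246 against BETi-211 in MDA-MB-157). Over the 6 comparisons of a compound with controls, the median of all genes was -0.05 to -0.01 on the deposited scale, -0.12 to -0.08 with the same total, 0.00 to 0.04 with upper-quartile scaling, 0.00 to 0.07 with quantile normalization and 0.01 to 0.09 with median-of-ratios scaling. The share of higher among called genes was 30.7% to 39.6% on the deposited scale, and 9.88% to 26.3%, 50.3% to 54.9%, 48.8% to 62.4% and 50.5% to 65% with these scalings. The cause of the changes below was not tested.

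The count of genes called with BETi-211 in MDA-MB-231 fell from 5 to 3 with the same total and to 3 with the line fitted alone. The count whose BETd-246 response differed between lines rose from 0 to 2 with a pseudocount of 0.1 and to 1 with quantile normalization, and that for BETi-211 fell from 6 to 3 with DMSO alone and to 2 with thalidomide alone as the control.

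With 1 library left out, the counts ran from 6 to 8, 4 to 8 and 6 to 7 for BETd-246 against controls (MDA-MB-157 first, MDA-MB-231 next, MDA-MB-468 last), from 5 to 8, 3 to 7 and 8 to 9 for BETi-211, and from 2 to 6, 3 to 4 and 4 to 6 for BETd-246 against BETi-211. For thalidomide they ran from 0 to 2 and 0 to 1 and stayed 0 in MDA-MB-468. Averaged over the lines, they ran from 7 to 9 for BETd-246 and 9 to 10 for BETi-211. Between lines they ran from 0 to 3 for BETd-246 and 2 to 8 for BETi-211, and for control levels from 9 to 10. Without either BETi-211 library of MDA-MB-231 the BETi-211 count there was 3. BETd-246 against BETi-211 in MDA-MB-157 gave 3 without BETi-211 replicate 1, 5 without BETi-211 replicate 2 and 2 without BETd-246 replicate 2. Thalidomide gave 2 in MDA-MB-157 without DMSO replicate 1 and 1 in MDA-MB-231 without thalidomide replicate 2. Between lines, BETd-246 gave 1 to 3 without DMSO replicate 1 of MDA-MB-468 or MDA-MB-157, DMSO replicate 2 of MDA-MB-157, or either thalidomide library of MDA-MB-231, and BETi-211 gave 2 or 3 without a BETi-211 library of MDA-MB-468 or MDA-MB-231.

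Values that changed sign follow, in log2 units. With the same total, BETd-246 gave SQSTM1 -0.02 and MAP1LC3B -0.05 in MDA-MB-157 and TFE3 -0.05 and SQSTM1 -0.04 in MDA-MB-231, and BETi-211 gave CTSD -0.08 in MDA-MB-231. Without mitochondrial genes in that total, MAP1LC3B was -0.03, TFE3 0.00 and CTSD -0.05 in the same comparisons. With upper-quartile scaling the BETd-246 values of GABARAPL1 were 0.08 in MDA-MB-157 and 0.03 in MDA-MB-468, and in MDA-MB-231 with BETi-211 GABARAPL1 was 0.02 and PLEKHM1 0.01. With quantile normalization and BETd-246, SQSTM1 was -0.10, -0.06 and -0.01 and GABARAPL1 0.17, 0.19 and 0.03 in that order of lines, and PLEKHM1 0.03 in MDA-MB-231. With it and BETi-211, CTSB was -0.06 in MDA-MB-157, CTSD -0.07, GABARAPL1 0.05 and PLEKHM1 0.05 in MDA-MB-231, and TFE3 0.06 in MDA-MB-468, and for BETd-246 against BETi-211 PLEKHM1 was 0.02 in MDA-MB-157 and TFEB 0.10 and GABARAPL1 0.14 in MDA-MB-231. With median-of-ratios scaling GABARAPL1 was 0.15, 0.05 and 0.14 with BETd-246 in the 3 lines, GABARAPL1 and PLEKHM1 were both 0.02 with BETi-211 in MDA-MB-231, and the direct difference was 0.03 for GABARAPL1 in MDA-MB-231 and 0.10 for CTSB in MDA-MB-468. With thalidomide alone as control, SQSTM1 was -0.02, MAP1LC3B -0.01 and GABARAPL1 0.12 with BETd-246 in MDA-MB-157, GABARAPL1 0.01 with BETd-246 in MDA-MB-468 and CTSD -0.03 with BETi-211 in MDA-MB-231.

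With 1 library left out, signs changed within these ranges: SQSTM1 -0.02 to 0.16, MAP1LC3B -0.03 to 0.09 and GABARAPL1 -0.02 to 0.01 with BETd-246 in MDA-MB-157, MAP1LC3B -0.07 to 0.28 in MDA-MB-231 with BETd-246, CTSD -0.02 to 0.02 and GABARAPL1 -0.11 to 0.02 in MDA-MB-231 with BETi-211, and, for BETd-246 against BETi-211 in MDA-MB-468, CTSB -0.04 to 0.03 and PLEKHM1 -0.03 to 0.05. The replicate block left the called counts at 7, 6 and 7 with BETd-246 and changed 2 calls: CTSD with BETi-211 in MDA-MB-468 (limma adjusted p = 0.0539) and SQSTM1 between lines with BETi-211 (limma adjusted p = 0.0684). Same-numbered libraries deviated together at correlations of -0.21 to 0.33, the highest between DMSO and thalidomide in MDA-MB-468. With 1 difference per group, this does not settle whether the numbers pair the libraries. The filter at 5 FPKM removed TFEB. Depth limits TFEB most, whose lowest value rests on an estimated 55.2 fragments.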
